A study of Mus musculus with 9 samples.

Results

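The mitochondrial ribosomal proteins were followed in the tibialis anterior, a fast hindlimb muscle, of male mice, as the genes whose symbol is Mrpl or Mrps followed by a number. There were 77 such genes among the 14300 protein-coding genes that both deposited tables list, 48 of them Mrpl (large subunit) and 29 Mrps (small subunit). The samples were 3 control libraries, whose columns the tables call Sham, 3 libraries of orchiectomised mice (ORX, testes removed) and 3 libraries of orchiectomised mice given dihydrotestosterone (ORX+DHT), an androgen that binds the androgen receptor directly. All mice were of the C57BL/6J strain and were sampled 4 weeks after treatment. The labels number the libraries of each group as biological replicates, 1 to 3. Age, hormone dose and the surgery of the control mice are not given in the sources used here. Because whole muscle was measured, fewer cells of a type and less RNA per cell cannot be told apart in any value.

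The mitochondrial ribosome, or mitoribosome, translates the few messages that the mitochondrial genome still encodes, all of them core subunits of the respiratory chain and of ATP synthase. Its ribosomal RNAs come from mitochondrial DNA, while every one of its proteins is encoded in the nucleus, translated in the cytosol and imported. The large subunit forms the peptide bond and is tethered to the inner membrane, and the small subunit reads the message. Some of the proteins descend from bacterial ribosomal proteins and others exist only in mitochondria. Muscle depends on this machinery for oxidative capacity, and inherited defects in several of the proteins cause failure of oxidative phosphorylation. Symbols do not always match the structure. Mrps30 and Mrps18a are built into the large subunit, and Mrps36 is now assigned to the 2-oxoglutarate dehydrogenase complex. They are counted here by symbol.

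The 77 genes lie on 17 autosomes, with 11 on chromosome 11 and 8 on chromosome 17 (GRCm38, GENCODE release M21). They are short genes: the median transcript was 1226 bases, against 2847 bases over the expressed genes, and the median coding sequence was 558 against 1347 bases. A neighbour that starts within 1000 bases on the opposite strand was annotated for 33 of the 77 (42.9%), against 17.2% of expressed genes. Several of these neighbours are mitochondrial genes too, such as Twnk beside Mrpl43, Sars2 beside Mrps12, Ndufs6 beside Mrpl36 and Ndufb5 beside Mrpl47. Mrps11 and Mrpl46 are neighbours of each other, with exons that overlap on opposite strands. In all, 32 members share exon sequence with another annotated gene, 27 of them on the opposite strand. The strand setting of the counting is not given in the sources used here, so the values of these 32 genes may include reads of their neighbours.

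RefSeq promoter windows (GRCm38.p6, 250 bases before to 50 bases after a start) were found for 68 of the 77 genes, as 74 windows. The windows had a median GC content of 58.5%, against 61.3% for expressed genes, and 0 of 74 held TATAAA on the gene's strand in the 50 bases before the start, against 1.4% of the windows of expressed genes. Each motif was searched on both strands. CCGGAAGT, bound by ETS factors such as the GABP that serves many mitochondrial genes, was in 16.2% of member windows and 8.71% of expressed-gene windows. TGCGCANGC, the core of the NRF1 motif, was in 16.2% against 8.95%. AANATGGCG, the YY1 motif, was in 14.9% against 5.77%. AGAACA, the hexamer that the androgen receptor contacts, was in 12.2% against 11.9%, and the inverted pair of hexamers that makes a full element was in 0 of 74 windows. CCAAT was in 39.2% against 36.7%. These are shares of windows and not of genes. Windows of 1 gene can overlap, and Mrpl2 was counted more than once for AGAACA and for CCAAT. Over all RefSeq windows the shares were 3.89%, 4.16%, 2.38%, 19.0% and 37.4% in the same order of motifs. The motifs do not overlap each other in the windows printed here. These are letter matches, not measured binding.

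Printed below, 5′ to 3′ on the gene's strand, are 150 bases (from 120 before to 30 after the start) of 4 promoters. The first 3 show the ETS, NRF1 and YY1 motifs among the members described here, and Mrps18a was added after its values were seen, because its adjusted p in the hormone comparison was the lowest. Capitals mark CCGGAAGT and CCAAT (as ATTGG on the other strand) in Mrpl3, the NRF1 motif in Mrpl44, the YY1 motif and CCAAT in Mrps30, and the YY1 motif in Mrps18a. The windows are chr9:105053148-105053297 (plus strand), chr1:79775898-79776047 (plus), chr13:118387223-118387372 (minus) and chr17:46110884-46111033 (plus).
Mrpl3: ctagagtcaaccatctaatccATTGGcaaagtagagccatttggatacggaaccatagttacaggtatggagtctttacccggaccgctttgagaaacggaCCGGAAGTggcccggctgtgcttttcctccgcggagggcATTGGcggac
Mrpl44: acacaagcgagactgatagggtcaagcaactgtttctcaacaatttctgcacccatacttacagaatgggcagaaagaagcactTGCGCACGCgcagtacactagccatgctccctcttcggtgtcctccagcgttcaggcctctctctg
Mrps30: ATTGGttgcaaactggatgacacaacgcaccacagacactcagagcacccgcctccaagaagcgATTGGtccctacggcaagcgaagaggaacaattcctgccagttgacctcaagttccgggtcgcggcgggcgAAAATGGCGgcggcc
Mrps18a: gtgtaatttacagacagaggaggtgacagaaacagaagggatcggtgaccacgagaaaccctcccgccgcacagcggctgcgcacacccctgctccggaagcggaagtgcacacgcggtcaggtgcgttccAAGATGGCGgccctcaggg

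The libraries held 1340209 to 1682235 reads on listed genes, recovered from the deposited values, and a member had between 9 and 391 reads in a library. At that depth counting alone gives a median expected standard deviation of 0.21 on the log2 scale. The members' median standard deviation was 0.19 among ORX libraries, 0.17 among ORX+DHT libraries and 0.44 among controls (0.13 between controls 2 and 3). The median of standard deviations from 3 or 2 libraries tends to lie below the expected one, so values under 0.21 do not show less spread than counting gives. Skeletal muscle fibre markers were abundant in all 9 libraries (9 markers, summed normalised count 271502 to 377763), and the 2 T and B cell markers listed in both tables summed to at most 2.5. The 5 fibroblast markers summed to between 1352 and 2729 in controls, between 2876 and 3841 in ORX and between 1700 and 2388 with the hormone, with none at 0. The 9 fibre markers summed to 312065 to 377763, 271502 to 281845 and 285461 to 310572 in the same order. The 8 slow and oxidative fibre markers summed to 2001 to 5733, 2643 to 4759 and 2011 to 3889, again in that order. The part of any of these cell or fibre types in the members' values was not tested.

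Levels are given per library as normalised counts on 1 scale for all 9 libraries, and levels of different genes are compared per kilobase of annotated transcript. Mrpl42, a mitochondria-specific large subunit protein, had the highest level (434 normalised counts per kilobase, mean of 9 libraries), followed by Mrpl30 (212) and the small subunit protein Mrps21 (189). The lowest were Mrps25 (5.74), Mrpl19 (7.62) and Mrps35 (9.0). The annotated transcripts of those 3 are 6073, 5000 and 4162 bases long, and by coding length they ranked 53, 66 and 70 of 77, while Mrpl42 stayed at rank 1. Mrpl42 had 488, 285 and 245 normalised counts in the controls, 232, 287 and 251 in ORX and 253, 271 and 271 in ORX+DHT. Control 1 stood above the other 8 libraries, and those 8 overlapped between groups.

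Control 1 held more mitoribosomal message than any other library. Members took 0.465% of its reads and 0.288% to 0.324% of the reads of each other library. Relative to each gene's median over the 9 libraries, the members' median was 0.73 log2 units higher in control 1 and lay between -0.15 (ORX 1) and 0.004 in the others. It was the highest library for 64 of the 77 members, against 27.3% of all expressed genes, and ORX 1 was the lowest for 23, against 12.3%. Large subunit members stood 0.80 higher and small subunit members 0.70 higher. Members with a bacterial homologue (46 genes) stood 0.78 higher and those specific to the mitoribosome (30 genes) 0.67 higher.

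**Figure D1:**
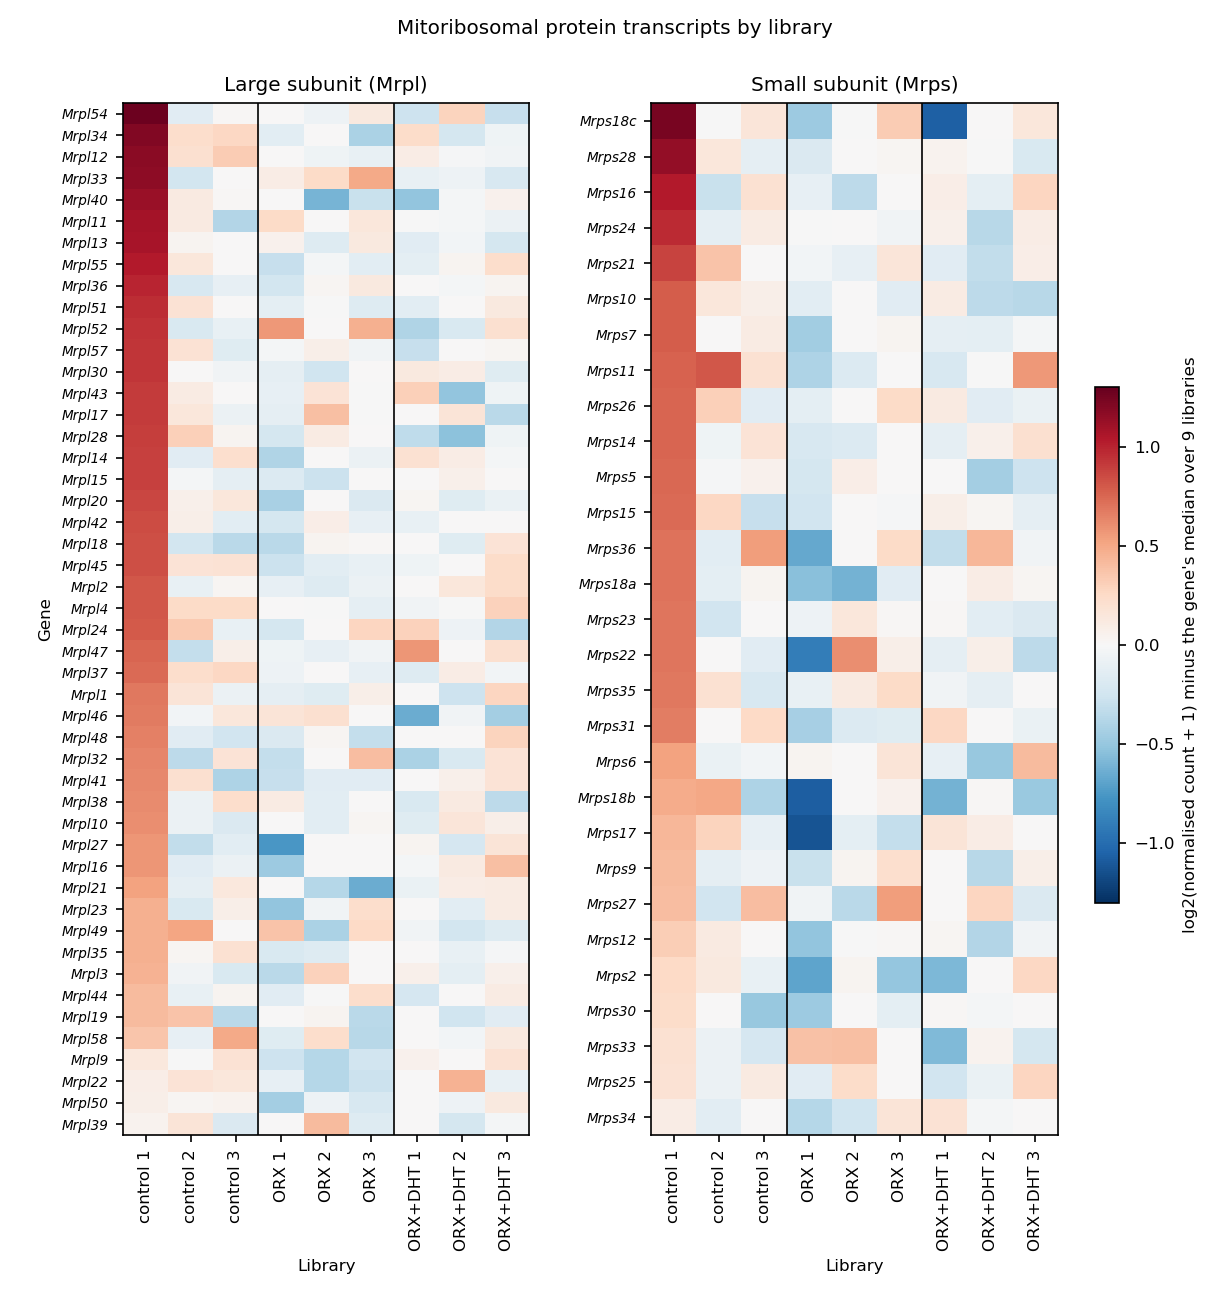
Each row is a gene and each column a library; colour gives log2(normalised count + 1) minus the gene's median over the 9 libraries, with red above and blue below that median. The control 1 column is red for nearly every gene of both subunits, while the other 8 columns show no group-wide block of colour.

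Members differed in how far control 1 stood out. Its ratio to the mean of the other 8 libraries ran from 1.02 for Mrpl39 to 2.53 for Mrps18c, a small subunit protein with a bacterial counterpart, with Mrpl54 (2.5) and Mrpl40 (2.44) next. Mrps18c had 53.7 normalised counts in control 1, then 22.1 and 24.8 in controls 2 and 3, 15.7, 22.2 and 28.1 in ORX and 10.1, 22.2 and 24.7 in ORX+DHT. The 13 members that control 1 did not lead were Mrpl9, Mrpl22, Mrpl39, Mrpl49, Mrpl50, Mrpl58, Mrps2, Mrps11, Mrps18b, Mrps25, Mrps27, Mrps33 and Mrps34. Mrpl58, a peptidyl-tRNA hydrolase that rescues stalled mitoribosomes, had 52.4, 37.6 and 57.6 normalised counts in the controls, 36.3, 47.8 and 31.4 in ORX and 40.5, 39.6 and 44.5 in ORX+DHT. Mrps34, needed for small subunit stability, had 27.5, 23.2 and 25.8, then 19.6, 21.3 and 28.9, then 29.4, 25.1 and 25.7. The 3 groups overlapped for all 3 of these genes.

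Control 1 also differed from the other libraries by transcript length over all genes. Expressed genes with transcripts up to 1000 bases had a median log2 difference of 0.78 against the other 8 libraries, and those above 5000 bases had -0.41. Among transcripts up to 1000 bases the 29 members had a median of 0.86, close to that 0.78. Among transcripts of 1000 to 2000 bases the 28 members had 0.76 against 0.39 for all genes, and among those of 3000 to 5000 bases the 12 members had 0.69 against -0.22. Some members of that last class have a short coding sequence in a long annotated transcript, such as Mrpl51 (384 of 3427 bases). By coding length up to 500 bases the 30 members had 0.89 against 0.60, and at 500 to 1000 bases the 37 members had 0.73 against 0.30. At 1000 to 2000 coding bases the 10 members had 0.67 against 0.01, and 0 members had more than 2000. These length classes were chosen after the data were seen, and the part of length in the members' values was not tested. Other lists stood high in control 1 as well, with a median of 0.95 for 76 cytosolic ribosomal proteins and 0.86 for 82 nuclear-encoded subunits of oxidative phosphorylation. The 5 mitoribosomal subunits without an Mrp symbol stood at 0.57, and the 16 mitochondrial aminoacyl-tRNA synthetases, which charge the tRNAs of the organelle, at 0.13.

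**Figure D2:**
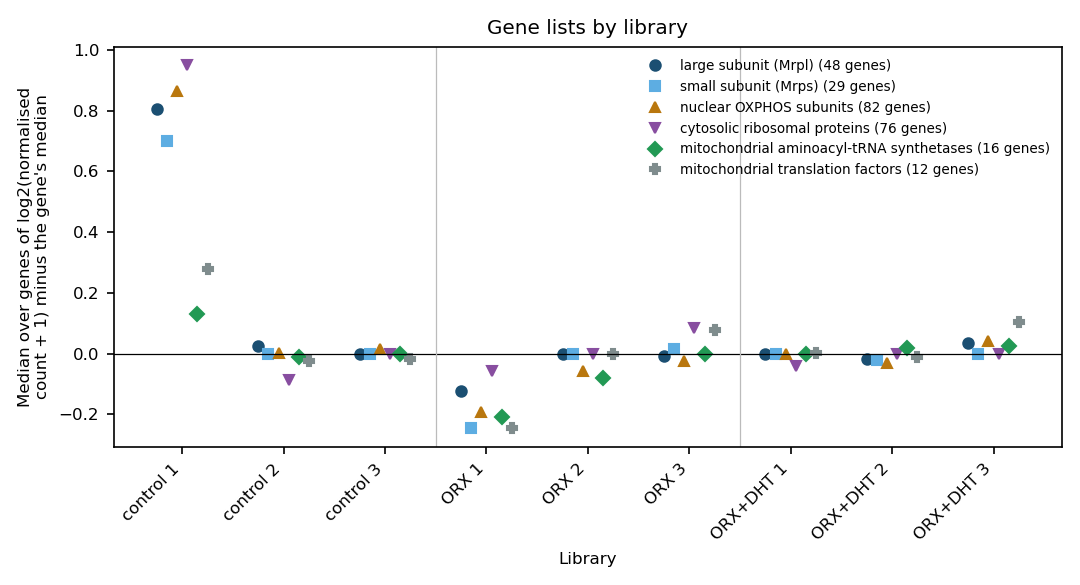
Points give, for each library, the median over the genes of a list of log2(normalised count + 1) minus the gene's median over the 9 libraries. Both subunits, the oxidative phosphorylation subunits and the cytosolic ribosomal proteins stand 0.70 to 0.95 up in control 1, the synthetases stand at 0.13, and all lists lie between -0.25 and 0.11 in the other libraries.

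Orchiectomy was compared with control within the table that holds both groups, to ask whether androgen loss changes these transcripts. No member passed the test: 0 of 77 had an adjusted p under 0.05 by limma over all 8631 genes tested, where 5 genes (0.0579%) did. With edgeR and DESeq2 0 members passed, where 6 and 28 of all genes did. Nearly all values were lower in ORX all the same. The log2 difference was below 0 for 74 of the 77 members (51.1% of all genes tested), with a median of -0.33 against -0.008 for all genes. It was -0.33 for the large subunit and -0.34 for the small subunit. At an unadjusted p under 0.05 there were 12 members, all lower, where 4.04% of all genes were lower. ORX and control libraries did not overlap for 18 members, all lower in ORX, where 8.06% of all genes were lower without overlap. For 58 of the 77 the 95% interval lay within a 2-fold change, as it did for 6953 of all 8631 genes.

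Without control 1 the median difference shrank to -0.088, with 54 of 77 members lower, against -0.015 for all 8609 genes tested. Again 0 members passed by limma, where 0.592% of genes did, and 8 had an unadjusted p under 0.05, all lower (6.06% of all genes were lower at that threshold). These 8 were also among the 12 above. The groups did not overlap for 18 members that were lower (14.9% of all genes) and for 4 that were higher (12.3%). The interval lay within 2-fold for 72 of the 77, and for 7253 of all 8609 genes. Fold changes below are from all libraries first and without control 1 second.

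Those 8 genes were Mrps11, Mrps17, Mrps18a, Mrpl9, Mrpl12, Mrpl34, Mrpl37 and Mrpl45. Mrpl9, a bacterial-type protein of the large subunit (chr3:94443318-94451130, plus strand), had 98.6, 89.6 and 102 normalised counts in the controls and 74.6, 69.1 and 75.3 in ORX. Every control was above every ORX library, control 1 lying inside the range of the other controls, and the log2 difference was -0.40 ± 0.16 (SE, adjusted p = 0.67) with all libraries and -0.39 ± 0.15 (adjusted p = 0.34) without control 1. Mrpl12, the stalk protein that also binds the mitochondrial RNA polymerase, had 356, 181 and 198 in the controls and 157, 151 and 146 in ORX. Control 1 set the size of that difference, which was -0.62 ± 0.23 (adjusted p = 0.67) and then -0.32 ± 0.12 (adjusted p = 0.31).

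Mrps17, a small subunit protein that binds the ribosomal RNA, had 71.2, 64.1 and 48.7 normalised counts in the controls and 23.6, 47.8 and 42.2 in ORX. ORX 1 was the lowest, and ORX 2 lay just under control 3. The log2 difference was -0.73 ± 0.27 (adjusted p = 0.67), -0.61 ± 0.26 (adjusted p = 0.41) without control 1, and -0.42 (adjusted p = 0.99) without ORX 1. Mrps11, which lines the platform of the small subunit and was named after its values were seen, had 38.7, 39.8 and 25.8 against 16.7, 19.6 and 22.3. Its difference was the largest of all members (-0.79 ± 0.25, adjusted p = 0.56, then -0.70 ± 0.27, adjusted p = 0.35). Mrpl34 had 104, 52.0 and 53.6 against 40.3, 44.4 and 33.1, a difference of -0.75 that became -0.43 without control 1.

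Mrpl45, which helps hold the large subunit at the inner membrane, had 164, 103 and 103 normalised counts in the controls and 74.6, 82.7 and 85.2 in ORX (log2 difference -0.57, then -0.35). Mrpl37, named after its values were seen, had 247, 174 and 179 against 141, 148 and 138 (-0.47, then -0.30). Controls 2 and 3 lay close together for both genes, and above every ORX library. The limma adjusted p of these 2 genes and of Mrpl34 was 0.67 with all libraries and 0.35 to 0.44 without control 1. Without control 1, Mrpl33, a small protein near the tRNA exit site, was among the 4 that were higher without overlap, with 38.7 and 45.7 in controls 2 and 3 and 49.1, 54.6 and 64.5 in ORX.

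**Figure D3:**
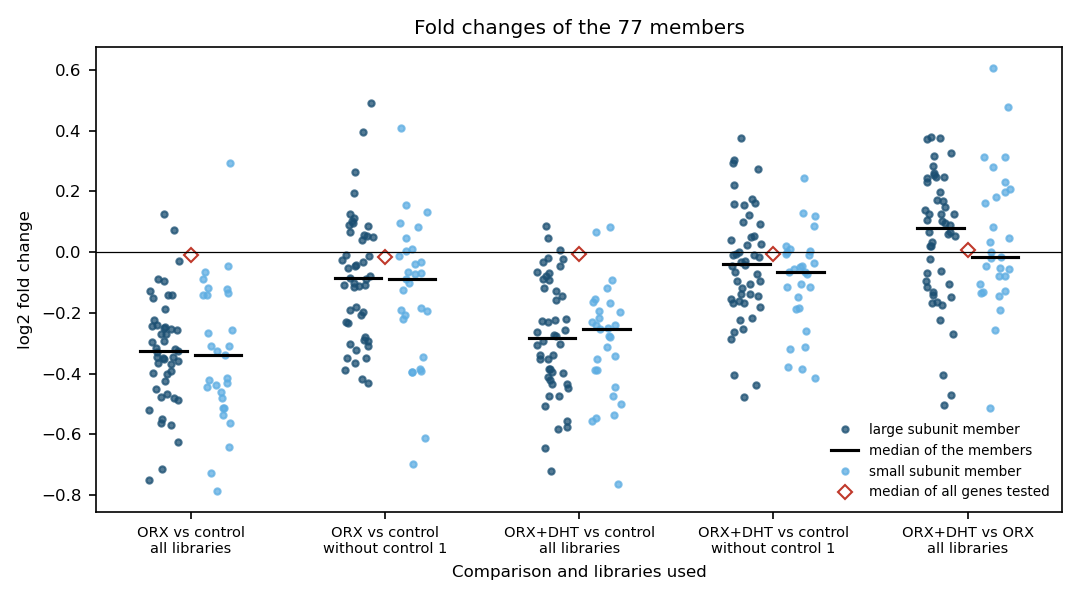
Each point is the log2 fold change of a member, with large subunit members left and small subunit members right of each position, black bars at their medians and diamonds at the median of all genes tested. Bars of the large and small subunit lie at -0.33 and -0.34 for ORX against control with all libraries, and at -0.09 and -0.09 without control 1. For ORX+DHT against control they lie at -0.28 and -0.25, and at -0.04 and -0.06 without control 1. For ORX+DHT against ORX they lie at 0.08 and -0.01.

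Among the members known from inherited disease or with a special role, none passed in this comparison either. Log2 differences with all libraries were -0.48 for Mrps2, -0.44 for Mrps7, -0.46 for Mrps16, -0.26 for Mrps22, -0.09 for Mrpl3 and -0.09 for Mrpl44. Without control 1 they were -0.40, -0.19, -0.10, 0.003, 0.10 and 0.06. Mrps12, part of the decoding centre, gave -0.31 and then -0.22, Mrpl11, near the factor-binding site, gave -0.14 and then 0.27, and Mrpl41 gave -0.35 and then -0.11. The 3 Mrps18 paralogs gave -0.64 (Mrps18a), -0.54 (Mrps18b) and -0.51 (Mrps18c), which became -0.39, -0.39 and -0.12. Mrps27, a small subunit protein of the pentatricopeptide type, gave -0.14 and then -0.03, and Mrps30 -0.12 and then 0.05. Mrps36 gave -0.51 and then -0.34, with 42.5, 23.2 and 37.7 normalised counts in the controls and 15.7, 25.6 and 30.6 in ORX. GENCODE M21 annotates pseudogene copies of Mrps36, and of Mrpl23 and Mrpl48, so the values of these 3 genes are less certain.

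Dihydrotestosterone was compared with no hormone among orchiectomised mice in the other table, which holds no control library. This comparison called 358 of 8770 genes (4.08%) by limma, and 0 of the 77 members were among them. By edgeR and DESeq2 it called 366 and 221 genes, again with 0 members. Members were split in direction, 44 higher and 33 lower, with a median log2 difference of 0.053 against 0.006 for all genes. The large subunit median was 0.08 (31 of 48 higher) and the small subunit median was -0.01 (13 of 29 higher). At an unadjusted p under 0.05 there were 4 members higher (7.91% of all genes) and 2 lower (6.34%). Libraries did not overlap for 9 members that were higher (10.4%) and 3 that were lower (9.13%). The 95% interval lay within a 2-fold change for 75 of the 77, the exceptions being Mrps17 and Mrps33, and for 7729 of all 8770 genes. The ORX libraries are those compared with control above, so low ORX values alone give a fall there and a rise here.

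The clearest member was Mrps18a, a large subunit protein despite its symbol (chr17:46110986-46128910, plus strand), whose promoter is printed above. It had 60.9, 58.0 and 80.2 normalised counts in ORX and 89.2, 95.7 and 90.9 in ORX+DHT, against 146, 81.8 and 91.4 in the controls. Every ORX+DHT library was above every ORX library, and ORX 3 was the nearest to them. The log2 difference was 0.48 ± 0.14 (SE, unadjusted p = 0.0041, adjusted p = 0.081 by limma). Without ORX 3 it was 0.62 with an adjusted p of 0.018, and without each other library in turn the adjusted p was 0.15 to 0.30. With all libraries, the lowest adjusted p of any member in this comparison was 0.10 with edgeR and 0.40 with DESeq2.

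Mrpl9 had 74.6, 69.1 and 75.3 normalised counts in ORX and 93.2, 89.9 and 103 in ORX+DHT, a log2 difference of 0.38 ± 0.13 (adjusted p = 0.13). The ORX+DHT values lay in the range of the controls (89.6 to 102) but for ORX+DHT 3. Mrps17 had 23.6, 47.8 and 42.2 in ORX and 58.8, 56.1 and 52.4 in ORX+DHT, a difference of 0.61 ± 0.22 (adjusted p = 0.16), and without ORX 1 the difference was 0.31. Mrpl2, which sits by the peptidyl transferase centre and was named after its values were seen, had 114, 109 and 117 against 123, 136 and 145 (0.25, adjusted p = 0.34). Mrpl16 (0.32) and Mrpl50 (0.26) were the next largest differences among well-expressed members, and their libraries overlapped.

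**Figure D4:**
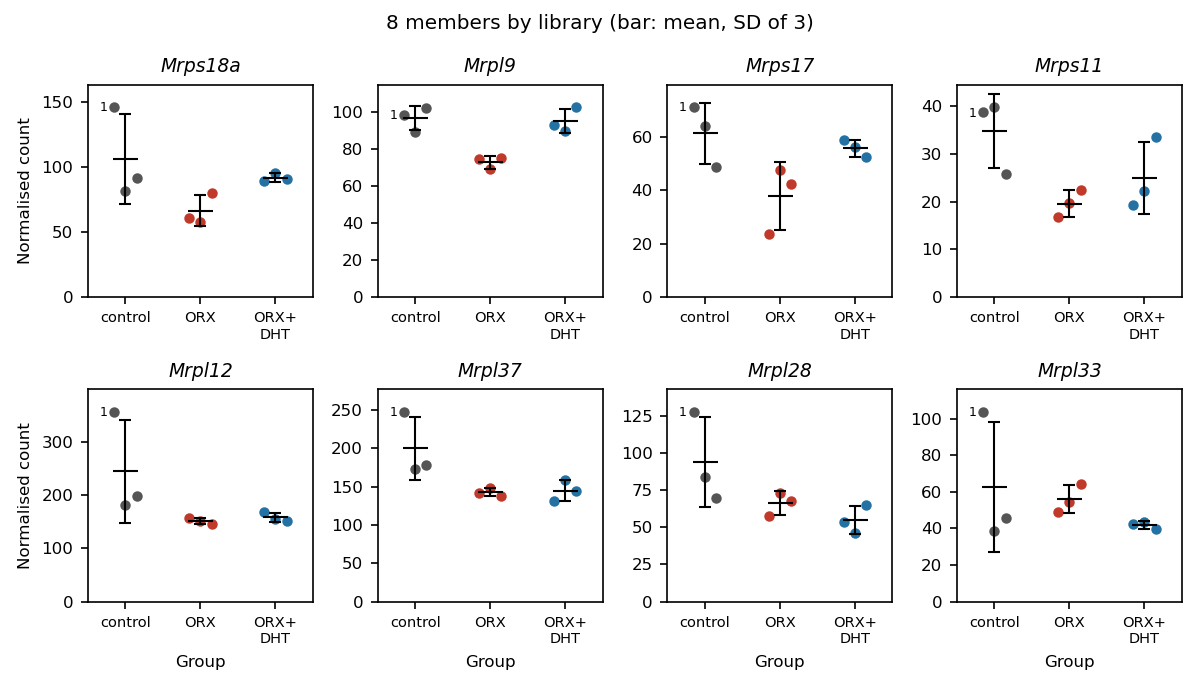
Points are normalised counts of 8 members in the 3 libraries of each group, with the mean and SD as bars and the first control library marked 1. Mrps18a, Mrpl9 and Mrps17 show ORX libraries below those of both other groups, while for Mrpl12 and Mrpl37 the ORX and ORX+DHT libraries overlap and all lie below the controls.

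Other members had lower values with the hormone, and none of them passed the test. Mrpl33 had 49.1, 54.6 and 64.5 normalised counts in ORX and 42.6, 43.5 and 39.5 in ORX+DHT, a log2 difference of -0.41 ± 0.16 (adjusted p = 0.23 by limma) with no overlap. Mrpl46, named after its values were seen, had 38.3, 39.2 and 33.9 against 21.3, 32.9 and 24.7, a difference of -0.50 ± 0.21 (adjusted p = 0.25). Mrps11, which overlaps Mrpl46 on the opposite strand, had a difference of 0.31 in the other direction (16.7, 19.6 and 22.3 against 19.2, 22.2 and 33.6), with overlapping groups. Mrpl11 (61.8, 52.0 and 57.9 against 51.7, 51.2 and 49.4) was lower without overlap by a small margin (-0.17). Mrpl28 (-0.27), Mrps5 (-0.19) and Mrpl17 (-0.15) complete the largest lower values among well-expressed members, and their groups overlapped.

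Of the members with a special role, Mrpl12 differed by 0.07 between ORX+DHT and ORX (95% interval -0.15 to 0.29), Mrpl3 by 0.02, Mrpl44 by -0.06 and Mrpl58 by 0.13. Mrpl41 differed by 0.28 with no overlap (24.5, 27.3 and 27.3 against 30.4, 31.9 and 34.6, adjusted p = 0.55). Small subunit values were 0.28 for Mrps2, 0.05 for Mrps7, 0.03 for Mrps12, 0.23 for Mrps16, -0.06 for Mrps22, -0.01 for Mrps27, 0.20 for Mrps30, 0.21 for Mrps34 and 0.16 for Mrps36. The other 2 Mrps18 paralogs gave -0.02 (Mrps18b) and -0.25 (Mrps18c), with intervals of -0.67 to 0.63 and -0.92 to 0.41. The first of those intervals holds the value of Mrps18a (0.48) and the second ends below it, and a difference between the paralogs was not tested.

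**Figure D5:**
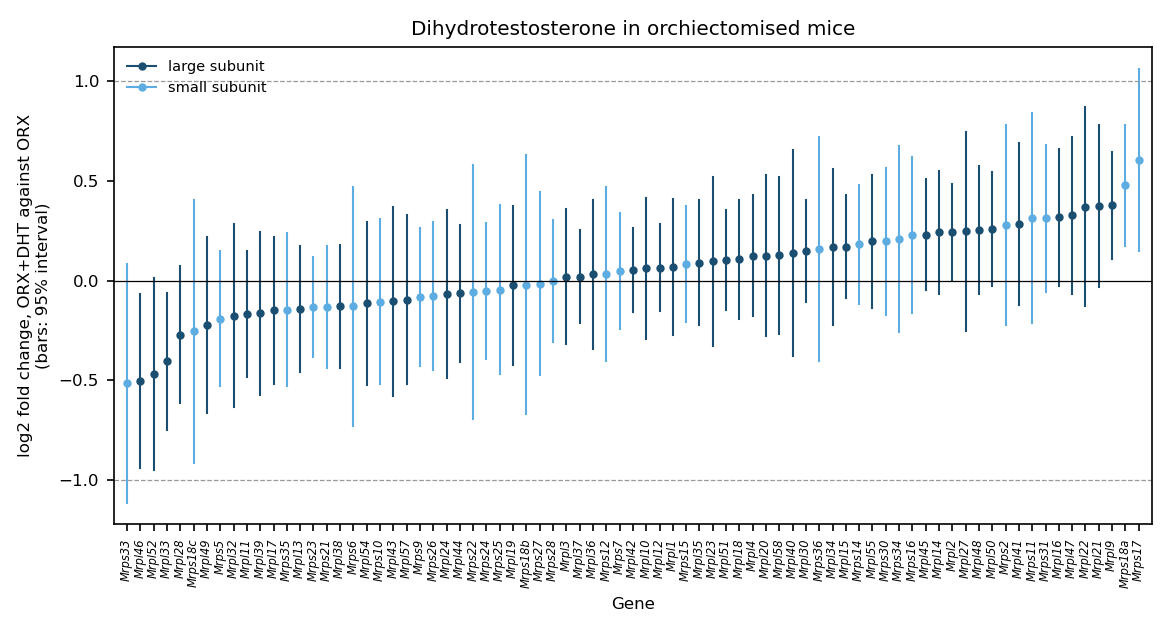
Points give the log2 fold change of each of the 77 members between ORX+DHT and ORX, ordered by size, with 95% intervals from limma and dashed lines at a 2-fold change. Intervals of 6 members exclude 0 before adjustment, and 2 intervals (Mrps17 and Mrps33) cross a dashed line.

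ORX+DHT was compared with control after joining the tables, and this comparison shares its libraries with the other 2. No member passed by limma, where 3 of 8595 genes (0.0349%) did. None passed by edgeR or DESeq2 either, where 4 and 13 of all genes did. With all libraries 72 of 77 members were lower (50.7% of all genes), with a median log2 difference of -0.27 against -0.005 for all genes. At an unadjusted p under 0.05 there were 6 members, all lower (3.3% of all genes), and 9 were lower with no overlap (7.12%). Without control 1 the median was -0.048 against -0.005 for all genes, with 51 lower (51.1% of all genes). The groups then did not overlap for 9 members that were lower (13.9% of all genes) and 5 that were higher (12.2%). Of all genes 0.768% passed then and of the members 0, and 3 members had an unadjusted p under 0.05, all lower (5.28% of all genes). The interval lay within 2-fold for 75 members without control 1, and for 7250 of all 8595 genes.

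Those 3 members were Mrpl12, Mrpl28 and Mrpl37. Mrpl28 (chr17:26123500-26126613, plus strand), a bacterial-type large subunit protein, had 127, 84.0 and 69.5 normalised counts in the controls, 57.9, 73.4 and 67.8 in ORX and 53.7, 46.4 and 65.2 in ORX+DHT. All ORX+DHT libraries were below all controls, and the log2 difference was -0.72 ± 0.23 (adjusted p = 0.74), or -0.48 ± 0.18 (adjusted p = 0.38) without control 1. Mrpl12 had 168, 156 and 152 in ORX+DHT (-0.56, then -0.25), and Mrpl37 had 132, 159 and 144 (-0.45, then -0.28). Both stayed below controls 2 and 3. Mrpl13 gave -0.51 and then -0.15, Mrpl34 gave -0.58 and then -0.26, and Mrps21 gave -0.55 and then -0.32. By contrast Mrps18a gave -0.16 and then 0.09, Mrpl9 -0.02 and then -0.01, and Mrps17 -0.12 and then -0.005. The fall and the rise of these last 3 genes rest on the same ORX libraries. Mrpl16 and Mrpl48 had the largest values without control 1 among the well-expressed members named here (0.27 and 0.29), against 0.05 and 0.01 with all libraries.

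Other genes of mitochondrial translation were read from lists chosen by function. Of all 8770 genes tested in the hormone comparison 4.08% passed and 4459 were higher, with a median of 0.006. In the hormone comparison 0 of 5 mitoribosomal subunits without an Mrp symbol passed (1 higher, 4 lower, median -0.13), among them Dap3, a GTP-binding small subunit protein, with 94.2, 107 and 80.2 normalised counts in ORX and 82.1, 84.1 and 82.0 in ORX+DHT. None of 12 translation factors passed (10 higher, median 0.09), nor did any of 22 assembly and ribosomal RNA factors (11 higher, median -0.03), 5 transcription factors of mitochondrial DNA (2 higher, median -0.09) or 16 aminoacyl-tRNA synthetases (11 higher, median 0.07). In ORX against control 0 genes of these 5 lists passed, with medians of -0.22, -0.15, -0.17, -0.10 and -0.07, and of -0.09, -0.09, -0.06, 0.01 and -0.06 without control 1. Of all genes 0.0579% passed there (median -0.008), and 0.592% without control 1 (median -0.015). No message encoded by mitochondrial DNA was found by symbol among the listed genes, so none could be analysed here.

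Among the regulators of mitochondrial genes and the oxidative phosphorylation subunits, 2 genes passed in the hormone comparison, where 4.08% of all genes did. Ppargc1a, the coactivator that drives mitochondrial gene programmes, was the 1 of 8 regulators tested that did, with 66.7, 78.5 and 61.2 normalised counts in ORX and 107, 106 and 98.8 in ORX+DHT. It rose without overlap (log2 difference 0.60 ± 0.13, adjusted p = 0.013 by limma). The controls had 42.5, 85.1 and 105, a range that holds all ORX values, and control 1 was the lowest library. In ORX against control Ppargc1a differed by -0.08 (adjusted p = 0.96 by limma), and by -0.46 (adjusted p = 0.30) without control 1. Nrf1, Gabpa and Yy1, which bind the motifs printed above, differed by -0.08, 0.17 and -0.21 (adjusted p = 0.94, 0.70 and 0.47). Ndufs4, a complex I subunit, was the 1 of 82 oxidative phosphorylation subunits that passed, and it rose by 0.66 (adjusted p = 0.00055 by limma). Of the 82 subunits 65 were higher, against 4459 of all 8770 genes, with a median of 0.11 against 0.006. None of 75 cytosolic ribosomal proteins passed, and their median was -0.03.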

How the data were processed

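The 2 deposited tables, from the authors, list normalised counts (a signal: reads per gene over a scaling factor for the library). Per the submitters' processing notes, Trim Galore 0.6.7, HISAT2 2.2.1, featureCounts 2.0.1, DESeq2 1.36.0 and GRCm38 were used, with no order given. PolyA libraries were made from 500 ng of RNA with a directional kit, per the labels' protocols. The values of every column were whole multiples of a step (100% within 0.01 reads), so reads were recovered. For ORX+DHT against control, and for all levels printed per library, the tables were joined on 14300 genes and rescaled by median-of-ratios factors. Differences were tested with limma 3.58.1 (R 4.3.3, mean-variance trend) on log2(value + 1), which understates changes of low genes, among genes with a mean of at least 10, with Benjamini-Hochberg adjustment over all genes tested and calls at 0.05. edgeR 4.0.16 and DESeq2 1.42.0 on recovered reads were alternatives. The fits were tested on simulated data. No column was left unmapped, and the replicate numbers do not pair the samples. No 2 libraries of the same group agreed within sampling noise.

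Members and lists were chosen with earlier results of these data known. Members named were those called, the 5 largest rises and falls per comparison among members with a mean of at least 50 in the higher group, the 3 highest and 3 lowest per kilobase, and 18 of known role. Promoters shown were named members with the most motifs, off chromosome 18.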

Additional observations from a re-analysis of the deposited data

How the results depend on the processing

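For ORX against control and ORX+DHT against control, the number of members called was 0 under every alternative run (edgeR, DESeq2, the replicate block, robust eBayes, 1 fit over all 9 libraries, quantile or TMM scaling, pseudocounts of 0.1 and 10, a minimum mean of 50 or none, and leaving out each library). For ORX+DHT against ORX it was 1 with the replicate block and 0 to 1 when each library was left out, the 1 being Mrps18a both times (adjusted p = 0.036 with the block, 0.018 without ORX 3), and the cause was not tested. Replicate numbers do not pair the samples: same-numbered libraries of 2 groups correlated at -0.16 to 0.15 over genes, and the block changed no other call of a member. The members' median log2 difference ranged over left-out libraries from -0.48 to -0.088 (ORX against control, the weakest without control 1), from -0.017 to 0.085 (ORX+DHT against ORX) and from -0.41 to -0.048 (ORX+DHT against control, again without control 1). Under the other alternatives these medians stayed within -0.36 to -0.28, 0.036 to 0.067 and -0.32 to -0.23. Scaling moved the median of all genes by less than 0.02. Directions changed for 3 of the members named by size: Mrpl48 in ORX+DHT against control was -0.021 with edgeR and -0.033 with DESeq2 and ranged from -0.16 to 0.29 over left-out libraries, Mrpl16 there ranged from -0.085 to 0.27, and Mrpl17 in ORX+DHT against ORX ranged from -0.26 to 0.0052. In ORX+DHT against ORX the 95% interval reached past a 2-fold change for 2 of the 77 members, Mrps17 and Mrps33.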
